A study of Mus musculus with 6 samples.

Results

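Peroxiredoxins and the thioredoxin system were followed in mouse liver as 10 genes chosen by symbol, *Prdx1* to *Prdx6*, *Srxn1*, *Txn1*, *Txnrd1* and *Txnip*. All 10 were among the 52459 genes of the count table and all passed the filter on low counts, which 17032 genes passed. Hepatic RNA was sequenced from 6 male Alb-Cre/Cas9 F1 mice (strain labelled C57BL6J), in which Cas9 is switched on by a Cre recombinase under the albumin promoter and is therefore made in hepatocytes. AAV8 carrying a control guide (sgCtrl, mice 5.1, 7.1 and 7.2) or a guide against *Prdx2* (sgPrdx2, mice 1.1, 1.3 and 3.2) was injected at 4 to 5 weeks of age. Both groups received 100 mg/kg of the hepatocarcinogen diethylnitrosamine (DEN) 3 weeks later and, from 1 week after that, the CDA-HFD, a choline-deficient, amino acid-defined high-fat diet, for 6 months, so that all livers were from 8-month-old mice with diet- and carcinogen-induced disease and none was from a healthy mouse. Whole liver was sequenced, so cells other than hepatocytes and hepatocytes without the vector keep an intact *Prdx2* in both groups.

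Peroxiredoxins are thiol peroxidases that reduce hydrogen peroxide and other peroxides through a reactive cysteine. Most of them are then reduced by thioredoxin, which thioredoxin reductase recharges with electrons from NADPH, while sulfiredoxin rescues peroxiredoxins whose cysteine has been over-oxidized and TXNIP binds and restrains thioredoxin. In hepatocytes this chain handles peroxide made by mitochondria, the endoplasmic reticulum, peroxisomes and cytochrome P450 enzymes, and several of its genes are known targets of NRF2, the transcription factor of the antioxidant response.

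The promoters shown here are those of 3 members known as NRF2 targets, because their transcripts stood in different positions between the groups, with *Srxn1* called lower, *Txnrd1* lower without passing the test and *Prdx1* level. The sequences are from RefSeq (GRCm38.p6, plus strand) and begin 250 bases before the annotated start site. They end before the first base of any annotated exon of the gene. Capitals mark the letters TGACNNNGC (the core of the antioxidant response element), TGANTCAGC (the form bound by NRF2 with small MAF proteins) and TGACTCA (the AP-1 element, which lies inside some forms of the other motifs), each searched on both strands.
Srxn1, chr2:152105274-152105515: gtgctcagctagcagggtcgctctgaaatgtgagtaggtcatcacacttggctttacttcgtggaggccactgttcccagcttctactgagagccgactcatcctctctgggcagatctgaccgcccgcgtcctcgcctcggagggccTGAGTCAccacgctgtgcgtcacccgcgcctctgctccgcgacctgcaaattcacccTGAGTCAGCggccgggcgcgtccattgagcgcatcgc
Txnrd1, chr10:82858956-82859178: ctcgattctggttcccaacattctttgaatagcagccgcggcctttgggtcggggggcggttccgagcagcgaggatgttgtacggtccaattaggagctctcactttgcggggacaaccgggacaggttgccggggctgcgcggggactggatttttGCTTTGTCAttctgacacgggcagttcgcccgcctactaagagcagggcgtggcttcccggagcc
Prdx1, chr4:116685349-116685543: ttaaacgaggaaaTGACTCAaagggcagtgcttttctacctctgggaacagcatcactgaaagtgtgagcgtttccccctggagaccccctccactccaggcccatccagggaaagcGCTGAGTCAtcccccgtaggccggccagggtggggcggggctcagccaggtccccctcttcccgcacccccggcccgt

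Counted from the start site, with negative numbers before it, the *Srxn1* window held TGAGTCAGC at −45 to −37 and a separate TGAGTCA at −102 to −96. A further match to the antioxidant core, GCTAGGTCA on the minus strand, lay at 29 to 37, past the printed stretch. The *Prdx1* window held GCTGAGTCA at −133 to −125, which matches all 3 motifs on the minus strand, and TGACTCA at −237 to −231. The printed window of *Txnrd1* belongs to 1 of its 3 annotated starts and held GCTTTGTCA at −92 to −84, while the windows of its other starts held no match. Windows were found for 9 of the 10 members (*Prdx6* had no entry). Of these 9, 3 held TGACNNNGC in at least 1 window, against 12.39% of 32851 windows of 300 bases. TGANTCAGC was held by 2 members, against 1.19% of windows, and TGACTCA by 2, against 5.2%. The E-box CACGTG was in the window of *Prdx4* and of no other member, against 7.15% of windows. Only these exact letters were searched, so variant forms of the element, in *Txnip* or elsewhere, were not looked for. The letters were chosen after the windows were seen, and some members are known NRF2 targets, so these counts are no test of enrichment. A member was counted for a match in any of its windows, whereas the shares are per window. Of the NRF2 targets listed below, 11 had windows, with TGACNNNGC in 4, TGANTCAGC in 2, TGACTCA in 2 and CACGTG in 0. These are matches of letters and were not tested for binding.

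Total counts per liver ran from 37462102 to 56865293, and 3 counts, taken here as the least that shows a transcript, stood for 0.0555 to 0.0921 CPM, far under any member. All levels are CPM, counts scaled to a library of 1000000, after TMM normalization (edgeR), which sets the libraries on a common scale from the bulk of genes. The defining transcripts of hepatocytes, albumin among them, were abundant in all 6 livers, and the sum of 8 hepatocyte markers was 76700 to 82490 CPM in sgCtrl and 132300 to 177500 CPM in sgPrdx2 livers. The summed levels of 8 macrophage markers (1616 to 2272 against 1107 to 1201 CPM), 8 stellate cell and myofibroblast markers (1304 to 1838 against 1052 to 1096 CPM), 6 cholangiocyte markers (1625 to 1854 against 1217 to 1391 CPM) and 7 lymphocyte markers (83.4 to 95.8 against 44.6 to 66.3 CPM) ran the other way without overlap. Endothelial, neutrophil and erythroid sums overlapped between the groups. In bulk tissue, fewer cells of a type and less RNA per cell cannot be told apart, and the part of these shifts in the results on the 10 members was not tested. Liver 3.2 stood apart from the other sgPrdx2 livers. Its median log2 difference from the sgCtrl mean was 0.58 for genes with transcripts of up to 1000 bases and −0.40 for genes with transcripts over 4000 bases, whereas in livers 1.1 and 1.3 these medians lay between −0.08 and 0.08.

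*Prdx2* (chr8:84969587-84974834, plus strand, 6 exons), the targeted gene, encodes the abundant cytosolic peroxiredoxin also known from red blood cells. Its transcript stood at 109, 117 and 132 CPM in sgCtrl livers 5.1, 7.1 and 7.2. In the livers labelled sgPrdx2 it stood at 99.0, 112 and 149 CPM (mice 1.1, 1.3 and 3.2). The lowest and the highest of the 6 values were both from livers labelled sgPrdx2, and the groups overlapped. The difference was 0.01 on the log2 scale (SE 0.18, 95% interval −0.41 to 0.42, edgeR quasi-likelihood adjusted p = 0.983). The transcript therefore did not separate the groups and is no check of the labels. A guide-directed cut leaves small insertions and deletions that need not lower the amount of transcript, and neither edited alleles nor PRDX2 protein were analysed here, so below, sgPrdx2 means the livers labelled so.

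*Prdx2* shares sequence with other genes. Of the 50-base stretches of its main transcript, 9.0% also occur in *Tdpx-ps1* or *Prdx2-rs3*, of which the first was at 1.93 and 1.98 CPM (means of sgCtrl and sgPrdx2 livers) and the second had 6 counts in all livers together. Its 5′ end overlaps that of *Rnaseh2a* on the opposite strand by 177 exonic bases and its 3′ end that of *Junb* by 173, and whether reads were counted by strand is not given in the sources used here. *Rnaseh2a*, a subunit of the nuclease that removes ribonucleotides from DNA, was at 24.9, 24.5 and 28.0 CPM in sgCtrl and at 65.1, 70.1 and 88.6 CPM in sgPrdx2 livers. It was called higher (log2 fold change 1.53, SE 0.15, edgeR adjusted p = 0.0313) and had the 3rd smallest p of all genes tested. Reads from the shared bases cannot be assigned to one of the pair without strand. *Junb* overlapped between the groups, with a log2 difference of 0.43 (SE 0.31, edgeR adjusted p = 0.421).

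**Figure D1:**
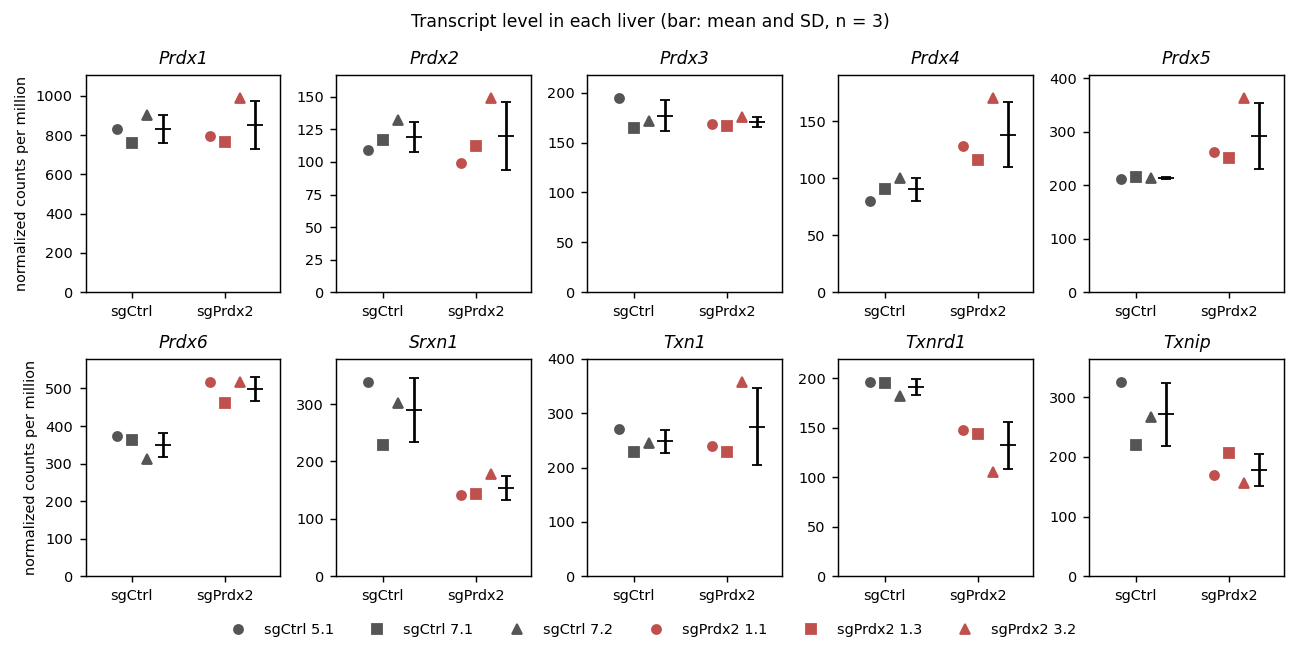
Normalized CPM of each of the 10 genes in each liver (symbols as in the legend), with the mean and SD of the 3 livers of a group as a bar beside the points and axes starting at 0. *Prdx4*, *Prdx5* and *Prdx6* lie higher, and *Srxn1*, *Txnrd1* and *Txnip* lower, in sgPrdx2 than in sgCtrl livers without overlap, while *Prdx1*, *Prdx2*, *Prdx3* and *Txn1* overlap. Values scaled to *Gapdh* are not drawn here. On that scale the log2 fold changes of *Prdx1*, *Prdx2*, *Prdx5*, *Prdx6* and *Txn1* turn below 0. The median of all genes is then −0.58, with *Prdx5* and *Prdx6* 0.40 and 0.50 above it.

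Of the 10 members, 1 passed the test, *Srxn1*, which was lower in sgPrdx2 livers. Over all genes the same test called 3.33% (567 of 17032), 1.79% higher and 1.54% lower, and 1 of 10 is a count of a single gene. The values of 3 members lay higher without overlap (scaling to *Gapdh*, which moved the median of all genes to −0.58, put *Prdx5* and *Prdx6* below 0 but at 0.40 and 0.50 above that median), against 16.7% of all genes, and those of 3 lay lower without overlap, against 17.5% of all genes. DESeq2, which called 13.4% of the genes it tested, called 5 of the 10, *Srxn1*, *Txnrd1* and *Txnip* lower and *Prdx4* and *Prdx6* higher. The median log2 difference (edgeR) was 0.02 over the members and −0.02 over all genes tested.

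*Srxn1* (chr2:152105516-152111376, plus strand, 2 exons) encodes sulfiredoxin, the ATP-dependent enzyme that reduces over-oxidized peroxiredoxins. It stood at 339, 230 and 302 CPM in sgCtrl livers 5.1, 7.1 and 7.2 and at 141, 144 and 178 CPM in sgPrdx2 livers 1.1, 1.3 and 3.2. Every sgCtrl liver was above every sgPrdx2 liver, and the sgCtrl livers were the more spread. The transcript was 1.88-fold lower in sgPrdx2 livers (290 ± 55.6 against 154 ± 20.7 CPM, SD, n = 3 per group), a log2 fold change of −0.91 (SE 0.19, 95% interval −1.34 to −0.48, edgeR adjusted p = 0.0466). DESeq2 also called it, at an adjusted p of 0.000261. The edgeR call was lost without sgCtrl liver 5.1 (adjusted p = 0.129), without sgCtrl liver 7.2 (0.162), without sgPrdx2 liver 1.1 (0.161) and without sgPrdx2 liver 1.3 (0.108), at log2 fold changes between −1.06 and −0.79 over all 6 such fits. In each fit that lost the call, edgeR called 0 of all genes tested, so the loss was not particular to *Srxn1*. No 50-base stretch of the *Srxn1* transcript occurs in another gene.

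*Prdx1* (chr4:116685544-116700822, plus strand, 6 exons), the most abundant cytosolic peroxiredoxin of these livers and a substrate of sulfiredoxin, was at 832, 758 and 904 CPM in sgCtrl and 796, 768 and 990 CPM in sgPrdx2 livers. The groups overlapped, with a log2 difference of 0.03 (SE 0.16, 95% interval −0.34 to 0.41, edgeR adjusted p = 0.911). About 10.9% of its 50-base stretches occur in the copies *Gm21399*, *Gm7204* and *Gm15974*, so part of its reads may have been split or dropped.

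The pair could also be compared within each liver, where no scaling between libraries enters. *Srxn1* counts were 40.7%, 30.3% and 33.5% of *Prdx1* counts in sgCtrl livers 5.1, 7.1 and 7.2. In sgPrdx2 livers they were 17.8%, 18.7% and 18.0%. The ratio was lower in 3 of 3 sgPrdx2 livers than in any sgCtrl liver and nearly the same in all of them, liver 3.2 included. The log2 difference was −0.93 (two-sided exact permutation p = 0.1, the smallest that 3 livers against 3 allow, 0.15 after Benjamini-Hochberg adjustment over 3 ratios), and with 1 liver left out it ran from −1.02 to −0.81.

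*Prdx3* (chr19:60864051-60874556, minus strand, 7 exons) encodes the peroxiredoxin of the mitochondrial matrix. It was at 195, 164 and 172 CPM in sgCtrl and at 169, 167 and 176 CPM in sgPrdx2 livers. These values overlapped and the sgPrdx2 livers lay close together, with a log2 difference of −0.06 (SE 0.13, 95% interval −0.36 to 0.25, edgeR adjusted p = 0.814).

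*Prdx4* (chrX:155323918-155340754, minus strand, 7 exons) encodes the peroxiredoxin of the endoplasmic reticulum, which passes oxidizing equivalents to folding proteins. It was at 80.4, 90.4 and 100.4 CPM in sgCtrl livers and at 129, 116 and 171 CPM in sgPrdx2 livers 1.1, 1.3 and 3.2. All sgPrdx2 livers were above all sgCtrl livers, and liver 3.2 was the highest. The log2 difference was 0.62 (SE 0.18, 95% interval 0.20 to 1.03), and at an adjusted p of 0.0931 edgeR did not call it, whereas DESeq2 did (adjusted p = 0.0185). With each library corrected for transcript length, a setting chosen after seeing the data, the difference was 0.37, and scaled to *Gapdh* it was 0.02, or 0.59 above the median of all genes on that scale.

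*Prdx5* (chr19:6906697-6910106, minus strand, 6 exons) encodes an atypical peroxiredoxin found in mitochondria, peroxisomes and the cytosol. It was at 212, 216 and 214 CPM in sgCtrl livers, the tightest group of any member, and at 263, 252 and 363 CPM in sgPrdx2 livers. The groups did not overlap and liver 3.2 was again far above the others. The log2 difference was 0.45 (SE 0.17, 95% interval 0.06 to 0.85, edgeR adjusted p = 0.158), it was 0.28 without liver 3.2 and 0.25 with the length correction, and scaled to *Gapdh* it was −0.17, which is 0.40 above the median of all genes on that scale. Exons of *Trmt112* on the opposite strand cover 19.1% of its exonic bases, but *Trmt112* was at only 7.82 and 8.54 CPM (group means).

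*Prdx6* (chr1:161240112-161251219, minus strand, 5 exons) encodes the 1-Cys peroxiredoxin, which uses glutathione in place of thioredoxin and also has phospholipase activity. It was at 373, 362 and 312 CPM in sgCtrl and at 517, 460 and 517 CPM in sgPrdx2 livers. All sgPrdx2 livers were above all sgCtrl livers, and here liver 3.2 did not stand out. The log2 difference was 0.51 (SE 0.14, 95% interval 0.18 to 0.84, edgeR adjusted p = 0.0848, DESeq2 adjusted p = 0.00681). It was 0.50 with the length correction and −0.07 scaled to *Gapdh* (0.50 above the median of all genes on that scale), and 0.3% of its stretches are shared with *Prdx6b*, which had 1 to 5 counts per liver.

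*Txn1* (chr4:57943373-57956411, minus strand, 5 exons), cytosolic thioredoxin, the electron donor of most peroxiredoxins, was at 271, 229 and 245 CPM in sgCtrl and at 239, 229 and 357 CPM in sgPrdx2 livers. Livers 1.1 and 1.3 lay within or at the edge of the sgCtrl range and liver 3.2 above it. The log2 difference was 0.15 (SE 0.20, 95% interval −0.31 to 0.61, edgeR adjusted p = 0.669) and −0.07 without liver 3.2. Its transcript has 1051 bases and shares 2.5% of its stretches with *Txn-ps1*, which was at 2.40 and 3.14 CPM (group means).

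*Txnrd1* (chr10:82833951-82897712, plus strand, 14 exons) encodes cytosolic thioredoxin reductase, the selenoprotein that recharges thioredoxin. It was at 197, 195 and 182 CPM in sgCtrl livers and at 148, 144 and 105 CPM in sgPrdx2 livers 1.1, 1.3 and 3.2. Every sgPrdx2 liver was below every sgCtrl liver, with liver 3.2 the lowest. The difference was −0.53 on the log2 scale (SE 0.16, 95% interval −0.91 to −0.15, edgeR adjusted p = 0.105, DESeq2 adjusted p = 0.0349). It was −0.38 without liver 3.2 and −0.45 with the length correction, at a transcript of 3531 bases.

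*Txnip* (chr3:96557957-96561883, plus strand, 8 exons), whose product binds thioredoxin and limits glucose uptake, was at 326, 220 and 268 CPM in sgCtrl and at 169, 207 and 156 CPM in sgPrdx2 livers. The groups did not overlap, although sgCtrl liver 7.1 and sgPrdx2 liver 1.3 lay close to each other. The log2 difference was −0.61 (SE 0.19, 95% interval −1.05 to −0.17, edgeR adjusted p = 0.106, DESeq2 adjusted p = 0.0286). The antisense gene *Gm15441* covers 19.4% of its exonic bases and was at 1.72 and 1.16 CPM (group means). Within livers, *Txnip* counts were 120%, 96.1% and 109% of *Txn1* counts in sgCtrl and 70.7%, 90.6% and 43.7% in sgPrdx2 livers. This ratio was lower in 3 of 3 sgPrdx2 livers than in any sgCtrl liver. The log2 difference was −0.72 (two-sided exact permutation p = 0.1, 0.15 after adjustment over 3 ratios) and −0.43 without liver 3.2. The transcripts differ in length (2795 bases for *Txnip*, 1051 for *Txn1*), and the length trend of liver 3.2 was not removed from the ratio. With the length correction the separate differences were −0.58 for *Txnip* and −0.10 for *Txn1*.

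**Figure D2:**
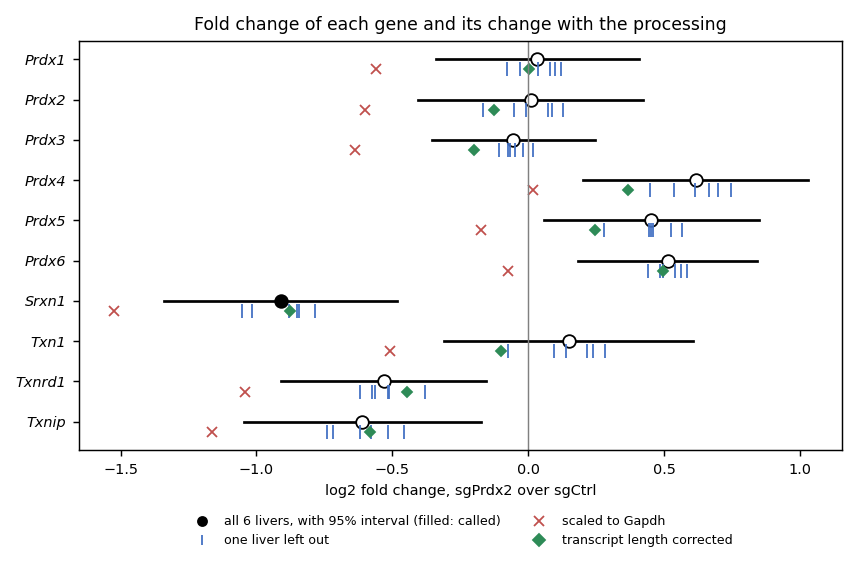
Log2 fold change of each gene, sgPrdx2 over sgCtrl, from edgeR with all 6 livers (circles, 95% interval as a line, filled where the adjusted p was under 0.05), and under each liver left out (ticks), scaling to *Gapdh* (crosses) and correction for transcript length (diamonds). *Srxn1* is the one filled circle, all its values lie below 0, and scaling to *Gapdh* moves all 10 genes towards lower values, taking *Prdx1*, *Prdx2*, *Prdx5*, *Prdx6* and *Txn1* below 0, as it moves the median of all genes to −0.58.

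Compared per length of transcript, *Prdx1* had the highest level of the 10 in both groups, at 362 ± 31.8 CPM per kilobase in sgCtrl and 371 ± 52.8 in sgPrdx2 livers (SD, n = 3). *Txn1* followed at 236 ± 20.5 and 262 ± 68.0 CPM per kilobase, and *Prdx5* at 169 ± 1.62 and 232 ± 48.7. In sgCtrl livers the next in order were *Prdx6* (146 ± 13.7 CPM per kilobase), *Prdx3*, *Srxn1*, *Txnip*, *Prdx4*, *Prdx2* and *Txnrd1* (54.1 ± 2.30). There the ranges of neighbours in this order overlapped from *Prdx6* to *Prdx3*, *Srxn1*, *Txnip*, *Prdx4* and *Prdx2*. *Prdx1*, *Txn1*, *Prdx5* and *Txnrd1* were each separate from their neighbours. Compared within each sgCtrl liver, the order held in every liver except for *Txnip* and *Prdx4*. *Txnip* was above *Prdx4* in liver 5.1 (116.5 against 81.2 CPM per kilobase) and below it in livers 7.1 and 7.2, so the order of that pair is not resolved. No order was tested.

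In sgPrdx2 livers *Prdx4* came after *Prdx6* (140 ± 28.9 CPM per kilobase), and *Srxn1* was in the ninth place, with 54.9 ± 7.34 against 103 ± 19.8 CPM per kilobase in sgCtrl livers. The ranges of the neighbours *Prdx1*, *Txn1*, *Prdx5* and *Prdx6* overlapped in turn there, as did *Prdx4* with *Prdx3*, *Prdx2* with *Txnip* and *Txnip* with *Srxn1*. Within every sgPrdx2 liver, however, *Prdx1* was above *Txn1*, *Txn1* above *Prdx5* and *Prdx4* above *Prdx3*. The order of *Prdx5* and *Prdx6*, of *Prdx2* and *Txnip* and of *Txnip* and *Srxn1* differed between livers.

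**Figure D3:**
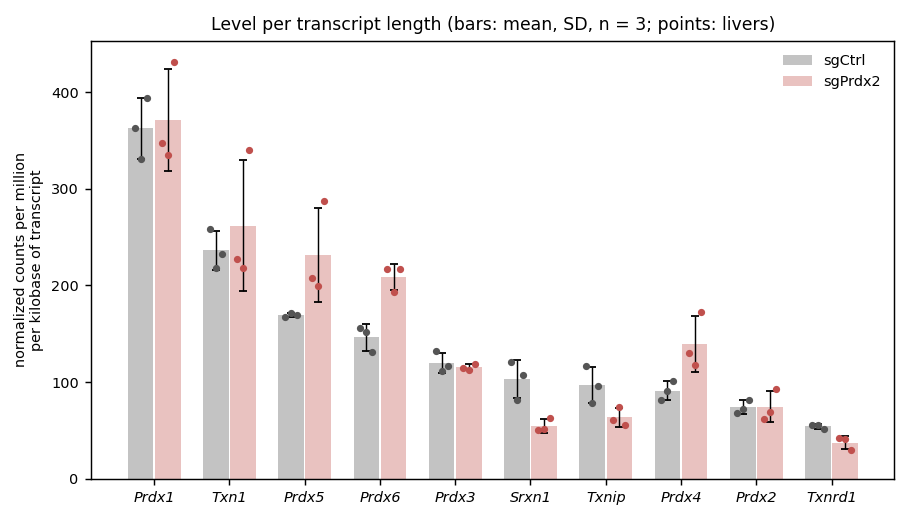
Normalized CPM per kilobase of transcript for the 10 genes, ordered by the sgCtrl mean. Bars are means with SD over 3 livers and points are livers. *Prdx1* is highest and *Txnrd1* lowest in both groups, and *Srxn1* stands at 103 in sgCtrl and 54.9 CPM per kilobase in sgPrdx2 livers.

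Among the 6 peroxiredoxin transcripts together, also per length, *Prdx1* made up 37.5%, 35.6% and 39.7% in sgCtrl and 32.2%, 32.6% and 32.7% in sgPrdx2 livers. The shares of *Prdx4* were 8.39%, 9.84% and 10.2% in sgCtrl and 12.1%, 11.4% and 13.1% in sgPrdx2 livers. *Prdx1* and *Prdx3* had lower shares in every sgPrdx2 liver, *Prdx4*, *Prdx5* and *Prdx6* had higher ones, and the share of *Prdx2* overlapped (7.0% to 8.24% against 5.70% to 7.01%). Division by a fixed length per gene does not remove a length trend that differs between livers, such as that of liver 3.2. *Prdx4* (990 bases) and *Prdx5* (1262 bases) have the shortest transcripts of the 6. Their log2 differences were 0.37 and 0.25 with the length correction. As raw counts, *Prdx2* was 6.46%, 7.34% and 7.76% of the other 5 peroxiredoxins in sgCtrl and 5.29%, 6.35% and 6.73% in sgPrdx2 livers. Livers of the 2 groups interleaved, and the log2 difference of −0.23 had a two-sided exact permutation p of 0.2 (0.2 after adjustment over 3 ratios).

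**Figure D4:**
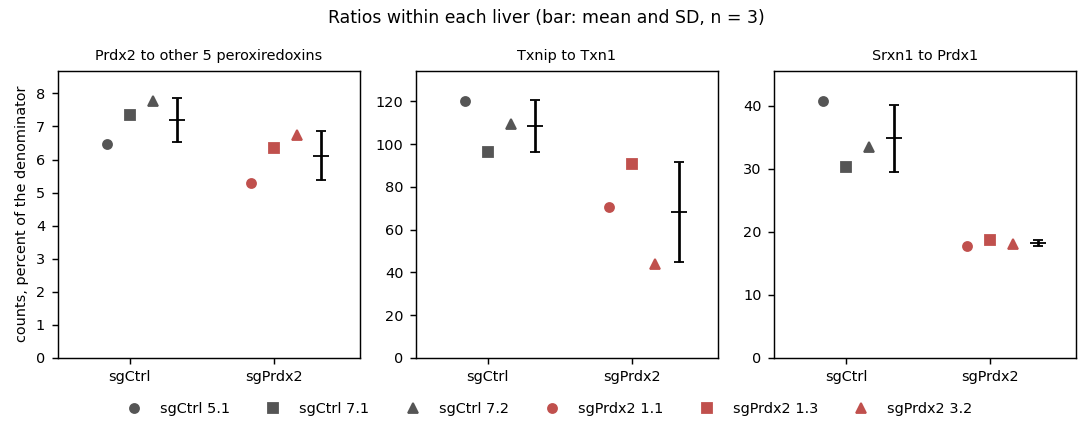
Counts of *Prdx2* as a percent of the other 5 peroxiredoxins, of *Txnip* as a percent of *Txn1* and of *Srxn1* as a percent of *Prdx1* in each liver, with mean and SD (n = 3) beside the points and axes starting at 0. The *Srxn1* share lies between 30.3% and 40.7% in sgCtrl and between 17.8% and 18.7% in sgPrdx2 livers, and the *Prdx2* shares overlap.

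The wider thioredoxin system held 28 further genes, thioredoxin-like proteins, glutaredoxins, sestrins, methionine sulfoxide reductases, ribonucleotide reductase subunits and arrestin-domain relatives of *Txnip*, *Arrdc4* being also among the *Txnip* regulators below. All 28 were tested and edgeR called 0 of them, against 3.33% of all genes. An unadjusted p under 0.05 was reached by 12, against 24.9% of all genes. DESeq2 called 3 higher and 0 lower, against 13.4% of the genes it tested called in either direction. Values of 10 lay higher and of 1 lower without overlap, against 16.7% and 17.5% of all genes. The median log2 difference was 0.15, against −0.02 over all genes. It was 0.04 without sgPrdx2 liver 3.2, 0.23 without sgPrdx2 liver 1.3 and 0.17 with each library corrected for transcript length. Scaled to *Gapdh* it was −0.46, where the median of all genes was −0.58. The smallest p belonged to *Msrb1*, the selenoprotein that reduces methionine-R-sulfoxide, at 188, 204 and 221 CPM in sgCtrl and 345, 304 and 480 CPM in sgPrdx2 livers. Its groups did not overlap (log2 difference 0.88, SE 0.19, edgeR adjusted p = 0.0537). *Txnrd2*, the mitochondrial thioredoxin reductase, was at 27.9, 29.4 and 34.3 CPM in sgCtrl and 42.5, 40.7 and 48.1 CPM in sgPrdx2 livers, a log2 difference of 0.52 (SE 0.13, edgeR adjusted p = 0.0689) in the direction opposite to that of its cytosolic counterpart *Txnrd1*, a contrast between genes that was not tested. *Msra*, the methionine-S-sulfoxide reductase, had a log2 difference of 0.56 (SE 0.16, edgeR adjusted p = 0.0872). These 3 are also the genes DESeq2 called, at adjusted p-values of 0.000610, 0.0145 and 0.0141.

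Of 14 NRF2 targets outside the 10 members, 4 were called lower, the heme oxygenase *Hmox1* (log2 fold change −1.01, edgeR adjusted p = 0.0386), the malic enzyme *Me1* (−1.06, 0.0373), the pentose phosphate enzyme *Pgd* (−0.69, 0.0466) and the cystine transporter *Slc7a11* (−1.31, 0.0491). *Hmox1* was at 125, 107 and 157 CPM in sgCtrl and at 62.7, 70.9 and 58.9 CPM in sgPrdx2 livers, without overlap. Over all genes 1.54% were called lower. None of the 14 was called higher, 6 lay lower without overlap, against 17.5% of all genes, and none higher, and the median log2 difference was −0.39. *Gclm*, *Fth1*, *Ftl1* and *Taldo1* had differences between 0.01 and 0.18 on the log2 scale and overlapped. These 4 calls were also lost (0 called) in the fits without sgCtrl liver 5.1, sgCtrl liver 7.2, sgPrdx2 liver 1.1 or sgPrdx2 liver 1.3. In each of these fits edgeR called 0 of all genes tested, so the loss was not particular to NRF2 targets. Without sgCtrl liver 7.1, 2 NRF2 targets were called. *Nfe2l2*, which encodes NRF2, was at 157 ± 12.4 and 140 ± 20.8 CPM (SD, n = 3) and *Keap1*, which encodes its inhibitor, at 68.5 ± 2.87 and 75.3 ± 6.23 CPM, both with overlapping groups (edgeR adjusted p = 0.524 and 0.514), and the pair was picked after values were seen. The macrophage sum was lower in sgPrdx2 livers, like the called NRF2 targets and *Srxn1*, and so were the stellate cell, cholangiocyte and lymphocyte sums. Within sgCtrl livers the macrophage sum was highest in 7.2 and *Srxn1* in 5.1. *Gpnmb*, which is part of the macrophage sum, was the only macrophage marker called (log2 fold change −1.08, edgeR adjusted p = 0.0373). Of the 8 macrophage markers, 5 overlapped between the groups. The part of these cell types in these results was not tested.

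**Figure D5:**
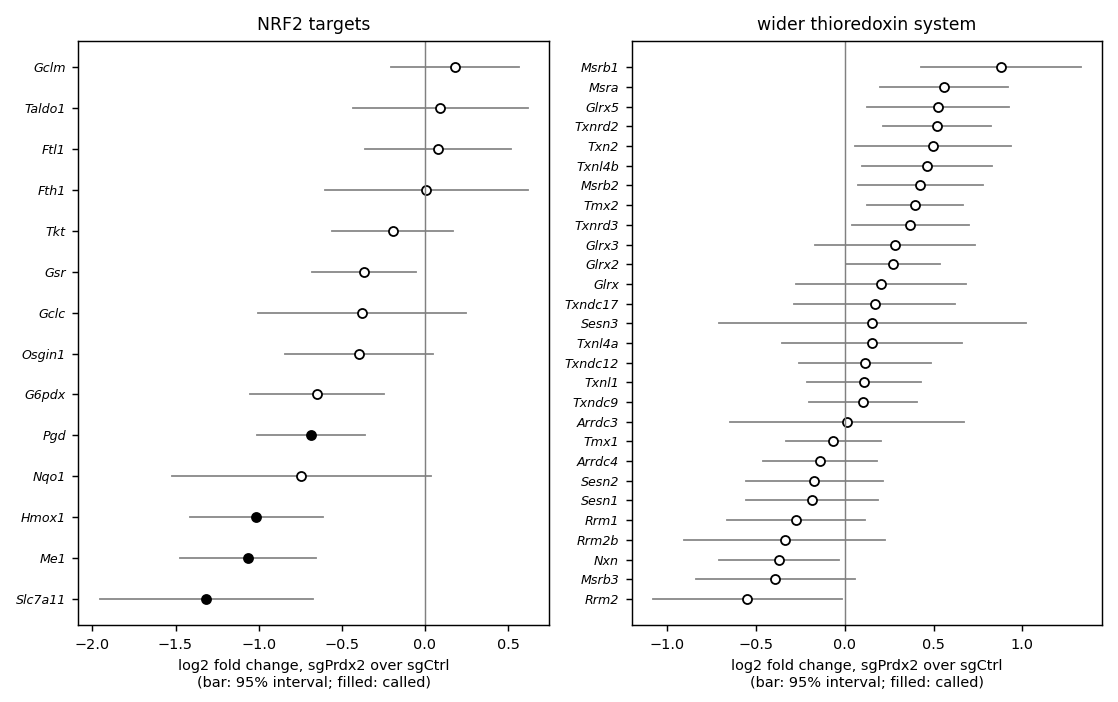
Log2 fold change, sgPrdx2 over sgCtrl, of 14 NRF2 targets (left) and 28 further genes of the thioredoxin system (right), sorted by value, with 95% intervals and filled circles where the edgeR adjusted p was under 0.05. On the left 4 genes are filled, all below 0, and on the right none is filled and 19 of 28 lie above 0.

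Of the 4 genes listed with *Txnip* regulation, none was called by edgeR, against 3.33% of all genes. An unadjusted p under 0.05 was reached by 1, against 24.9% of all genes. DESeq2 called 1, against 13.4% of the genes it tested. *Mlxip*, which encodes the glucose sensor MondoA, was at 26.4, 23.3 and 20.2 CPM in sgCtrl and 16.0, 16.8 and 12.7 CPM in sgPrdx2 livers. It was lower without overlap (log2 difference −0.62, SE 0.16, edgeR adjusted p = 0.0709, DESeq2 adjusted p = 0.0171). *Mlxipl*, which encodes ChREBP, its hepatic relative, and their partner *Mlx* lay higher without overlap, with log2 differences of 0.28 and 0.26 (edgeR adjusted p = 0.272 and 0.241). *Arrdc4*, a known target of the same factors, overlapped (−0.14, edgeR adjusted p = 0.559).

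Red blood cells are rich in PRDX2, so erythroid transcripts were set beside it. The sum of the erythroid markers was 156 to 200 CPM in sgCtrl and 189 to 257 CPM in sgPrdx2 livers. *Alas2*, the erythroid enzyme that opens heme synthesis, carried the higher values, at 41.2, 87.8 and 48.7 CPM in sgCtrl and 120, 101 and 134 CPM in sgPrdx2 livers (no overlap, edgeR adjusted p = 0.0872). Without it the sum was 115, 113 and 141 CPM in sgCtrl and 92.5, 87.3 and 124 CPM in sgPrdx2 livers, with overlap. All 4 globin transcripts had log2 differences below 0, from −0.46 (*Hbb-bt*) to −0.22 (*Hba-a2*), and *Hbb-bt* and *Hba-a1* were lower without overlap. The table held 8 of the 9 markers and 5 were tested, none of them called. *Epb42*, a transcript of the red cell membrane skeleton, was at 0 counts in all sgPrdx2 livers and at 0 to 2 counts in sgCtrl livers.

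Over the 6 livers, the genes whose log2 CPM ran most like that of *Prdx2* among 9266 genes of at least 10 CPM were *Smarce1* (Pearson r = 0.979), *Erp29* (0.978) and *Ddx39b* (0.978). Those most like *Txnip* were *Max* (0.997), *Rnf41* (0.994) and *Parp2* (0.992). These are the tops of a long list over 6 points that share libraries and groups, and are given as a description. Rows with related symbols and at least 10 counts were *Txndc5*, *Txndc11*, *Txndc15* and *Txndc16*, which encode thioredoxin-domain proteins, beside the copies named above. Of these, *Txndc15* had the smallest p (53.4 ± 1.61 against 72.7 ± 9.09 CPM, SD, n = 3, edgeR adjusted p = 0.0991), and none of the 4 was called.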

How the data were processed

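The authors deposited whole-number counts of reads per gene for each of the 6 livers, without normalization. Per the submitters' processing notes, HISAT2, HTSeq and DESeq2 were used with GRCm38, and versions, annotation and strand setting are not given in the sources used here. A deposited table of the authors' own DESeq2 comparison (mean level, fold change, test score and p-values) was not used. Groups came from the sample labels, which give no batch. No pair of libraries agreed within sampling noise (chi-square per degree of freedom at least 31.9). Each liver has its own mouse number. Mice 7.1 and 7.2, and mice 1.1 and 1.3, share the first part of their number and were the most alike pair of their group (chi-square per degree of freedom 59.3 and 31.9, against 66.5 to 80.0 and 103 to 117 for the other pairs). What that part marks is not given in the sources used here. No first part occurs in both groups, and the library numbers also run in separate blocks by group. Anything they mark therefore cannot be told apart from the guide, and whether livers that share a first part are independent was not tested.

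The filter filterByExpr (minimum count 10), TMM normalization and the tests were run in edgeR 4.0.16 under R 4.3.3, comparing the groups by the quasi-likelihood test with 3 livers per group and no covariate. Benjamini-Hochberg adjustment ran over all 17032 genes tested, and genes with an adjusted p under 0.05 were called. The SE of a log2 fold change is its size over √F. The common biological coefficient of variation was 0.213. The 3 ratios within livers were tested by two-sided exact permutation. Intervals and detection limits cover counting error or the spread between livers only, as named.

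Transcript lengths (the longest transcript of the best APPRIS rank), positions, overlaps and shared stretches came from GENCODE vM21 (GRCm38), which need not be the annotation used for counting, and promoter windows from RefSeq. As alternatives, counts were scaled by RLE, by the upper quartile or to *Gapdh* and tested with DESeq2 1.42.0, and other filters on low counts, the fit without mitochondrially encoded genes and fits without each liver were made. A correction for transcript length was added after seeing the data, and motif letters were chosen after the windows were seen. Members and gene lists were chosen with earlier results of these data known. Named genes are the members, every called gene of a list or otherwise its 3 smallest p-values, markers, rows with related symbols and at least 10 counts, the 3 genes most like *Prdx2* and *Txnip*, *Gapdh* and *Rnaseh2a*. Overlapping genes, shared copies, *Nfe2l2*, *Keap1* and NRF2 targets that were not called were named after values were seen. The main edgeR fit, the DESeq2 fit and the edgeR fit with length correction were also run on simulated counts with known changes. The other alternatives were not, and the simulated counts held no length trend.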

Additional observations from a re-analysis of the deposited data

How the results depend on the processing

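No paired analysis was possible because the groups share no mouse numbers. The number of genes called was 561 to 614 under RLE, upper-quartile, the stricter filter and leaving out mitochondrial genes, 261 scaled to *Gapdh*, 1128 without a filter, 2048 by DESeq2, 924 with the length correction chosen after seeing the data, and 0 to 619 with 1 liver left out (0 without sgCtrl 5.1, sgCtrl 7.2, sgPrdx2 1.1 or sgPrdx2 1.3, with 3114 to 3993 genes at an unadjusted p under 0.05). Of the members, 5 were called by DESeq2 and 0 to 1 with 1 liver left out. Of the wider thioredoxin system, 3 were called by DESeq2, 1 without a filter, 2 with the length correction and 0 to 1 with 1 liver left out. Of the NRF2 targets, 0 to 4 were called with 1 liver left out, and of the *Txnip* regulators 1 by DESeq2. *Srxn1* kept its direction in all 14 alternatives and was called in 10, with adjusted p from 0.000261 to 0.162. *Prdx4*, *Txnrd1* and *Txnip* also kept their direction in all 14.

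Scaling to *Gapdh*, which itself was at 30.5 and 47.7 CPM (log2 difference 0.64, edgeR adjusted p = 0.231), moved the median of all genes to −0.58. Relative to that median *Prdx4*, *Prdx5* and *Prdx6* stood at 0.59, 0.40 and 0.50. Before that subtraction, *Prdx1* (−0.56), *Prdx2* (−0.60), *Prdx5* (−0.17), *Prdx6* (−0.074) and *Txn1* (−0.51) turned below 0. With 1 liver left out *Prdx1* ran from −0.078 to 0.12, *Prdx2* from −0.17 to 0.13, *Prdx3* from −0.11 to 0.019 and *Txn1* from −0.073 to 0.28. *Prdx2* was also −0.005 with upper-quartile normalization and with no filter, and the length correction gave −0.13 for *Prdx2* and −0.10 for *Txn1*. The causes of these turns were not tested. The ratio differences kept their sign, with ranges over livers left out of −0.31 to −0.13 for *Prdx2* to the other peroxiredoxins, −0.96 to −0.43 for *Txnip* to *Txn1* and −1.02 to −0.81 for *Srxn1* to *Prdx1*. With 3 livers per group, differences of the size of the *Prdx2* interval were not resolvable.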
